A study of Mus musculus with 8 samples.

Results

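Large hematopoietic stem cells (HSCs), the 10% of sorted HSCs with the highest forward scatter, were compared with All HSCs, which were sorted in the same way but not divided by size. The comparison takes 4 of the 8 RNA-seq libraries of the series: Large 1 and Large 2 against All 1 and All 2, chosen by the size and replicate number in the sample titles. Both groups were HSCs from the marrow of C57BL/6J mice with no treatment or altered allele named in the labels. Lineage-positive marrow cells were removed, and antibodies to Sca-1, CD117, CD48 and CD150 were used to gate the rest. The labels name these antibodies without the gate set on each. A low-input cDNA kit was used on RNA of 10000 cells a library, all taken from the G0/1 gate. Large cells were gated on side and forward scatter. All HSCs also hold cells of Large size, so the groups are not exclusive. Whether the libraries of a group stand for separate animals is not in the labels. P-values therefore cover the spread among these samples alone, and that spread may be technical. The Small and Medium libraries, 2 of each, served to estimate the spread and were also set against All.

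HSCs maintain all blood lineages, and most of them rest outside the cell cycle at any time. Before a cell can copy its DNA, the MCM helicase is loaded on replication origins during G1 phase, and transcription factors of the E2F family drive the genes of this machinery. Cells that leave the stem cell state pass through multipotent progenitors, and the first myeloid progenitors among them already express the enzymes later stored in primary granules.

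Total counts were 15138852 and 15585024 in Large 1 and 2, and 14745907 and 16838448 in All 1 and 2. Expression is given as CPM, counts scaled to a common library total with TMM factors, which measures relative abundance and not RNA per cell. Log2 fold changes are Large over All from edgeR's quasi-likelihood fit, with the standard error (SE) and n = 2 libraries a group. No gene of 16066 tested passed an adjusted p of 0.05 in this fit, and the smallest adjusted p was 0.885. The called share was therefore 0% of genes. At an unadjusted p under 0.05, 504 genes differed. Of these, 215 were higher in Large (1.34% of genes) and 289 were lower (1.8%). Both Large libraries lay above both All libraries for 15.8% of genes and below both for 16.2%. These shares are the background for every count of genes in the text. An exact test of 2 against 2 libraries cannot give a two-sided p under 0.333. All values that follow are therefore descriptions of these libraries, and no gene or list is said to have passed the test.

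The libraries differed by replicate number as well as by size. Large 1 and All 1 lay at -81.2 and -43.2 on the first principal component of the 8 libraries (39.5% of the variance), and Large 2 and All 2 at 0.984 and 106. All 2 stood farthest from the other libraries. For that reason differences are also given within each number, as Large 1 minus All 1 and Large 2 minus All 2 on the log2 CPM scale. Where a library was left out of the fit, its same-numbered partner stayed in, so differences by number enter those values. Of all genes, 31.6% were higher and 33% were lower in Large within both numbers. In bulk samples, fewer cells of a type and less RNA of that type per cell cannot be told apart.

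The genes with the smallest unadjusted p among those whose libraries did not overlap included Pmaip1, Hspa1b and Met among the higher genes. Pmaip1, which encodes the pro-apoptotic BH3-only protein NOXA, had 97.5 and 105 CPM in Large and 43.8 and 38.3 CPM in All. Both Large libraries lay more than the whole spread of either group above All, with a log2 fold change of 1.3 (SE 0.22, unadjusted p = 0.000668 and adjusted p = 0.885 by edgeR's quasi-likelihood test). Hspa1b, an inducible cytosolic Hsp70 chaperone, had 59 and 78.5 CPM in Large against 24.4 and 16.2 CPM in All (log2 1.76, SE 0.36). Met, the receptor for hepatocyte growth factor, had 17.4 and 17.6 CPM in Large against 4.81 and 2.7 CPM in All (log2 2.22, SE 0.51). Hgf, which encodes the ligand of this receptor, differed the other way, with 13.3 and 11.1 CPM in Large against 22.9 and 36.9 CPM in All (log2 -1.29, SE 0.34). Receptor and ligand both met the naming rule and lay on opposite sides of the comparison.

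The other genes named as higher fall into a few roles. Irf8 and Gfi1 are transcription factors of the monocyte and granulocyte lineages. Irf8 had 108 and 118 CPM in Large against 35.3 and 12.9 CPM in All (log2 2.23, SE 0.58). Gfi1 had 63.5 and 58.9 CPM in Large against 33.2 and 16.7 CPM in All (log2 1.29, SE 0.35). Ccl9, a chemokine of myeloid cells, had 147 and 113 CPM in Large against 67.9 and 44.4 CPM in All. Pola2, a subunit of the polymerase that starts DNA strands, had 151 and 158 CPM in Large against 92.2 and 68.9 CPM in All. The biosynthetic genes were Shmt2, the mitochondrial serine hydroxymethyltransferase, with 179 and 174 CPM in Large against 109 and 90.9 CPM in All, and Sec61a1, the channel subunit of the endoplasmic reticulum translocon, with 467 and 382 CPM in Large against 285 and 225 CPM in All. Dhx38, a helicase of the spliceosome, had 66.5 and 67.5 CPM in Large against 41.9 and 30.2 CPM in All. The 10 genes had fitted log2 fold changes of 0.74 to 2.23.

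The genes named as lower were led by Slc18a2, the vesicular monoamine transporter, with 47.1 and 74.6 CPM in Large against 132 and 172 CPM in All (log2 -1.32, SE 0.29). Fam110c had 5.72 and 8.75 CPM in Large against 24 and 32.3 CPM in All (log2 -1.96, SE 0.46). Trim30b, a member of a tripartite-motif family, had 7.93 and 10.3 CPM in Large against 29.5 and 25.8 CPM in All. Cd84 belongs to the SLAM receptor family, as CD150 and CD48 do, and had 33.2 and 39.5 CPM in Large against 68.1 and 97.3 CPM in All (log2 -1.19, SE 0.30). Trpc6, a cation channel, had 22.4 and 30.8 CPM in Large against 71.9 and 71.5 CPM in All. The nuclear long noncoding RNA Neat1, the scaffold of paraspeckles, had 273 and 244 CPM in Large against 389 and 483 CPM in All (log2 -0.75, SE 0.20). Pfkfb2, an enzyme that sets the level of a glycolytic activator, Slc35d2, a nucleotide sugar transporter, and Art4, a blood group antigen in humans, completed the 10, whose fitted log2 fold changes ran from -1.96 to -0.75. In the plot of these 20 genes every Large point lies on one side of every All point, as the naming rule requires.

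**Figure D1:**
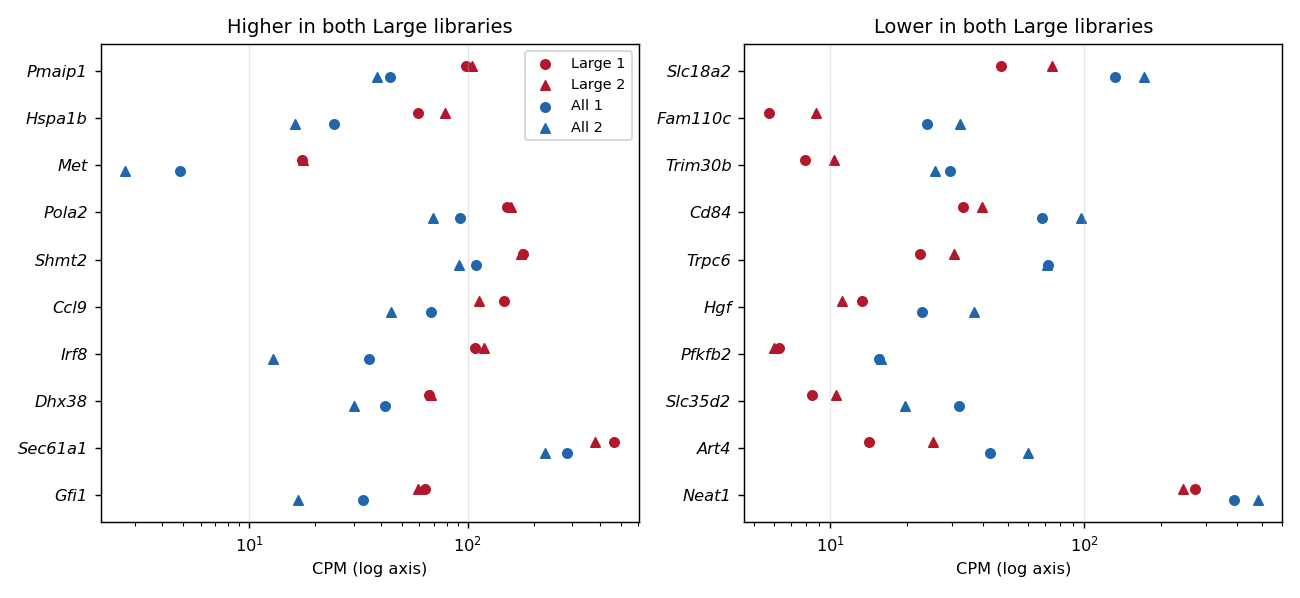
Expression in CPM (log axis) of the 10 genes named as higher and the 10 named as lower in Large HSCs, with 1 point per library (Large in red, All in blue; circles for number 1, triangles for number 2). Pmaip1 had 97.5 and 105 CPM in Large and 43.8 and 38.3 CPM in All, and Slc18a2 had 47.1 and 74.6 CPM in Large and 132 and 172 CPM in All.

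The antigens used in the sort did not all go one way. Cd48, whose product is low on HSCs and high on some multipotent progenitors, had 159 and 105 CPM in Large against 67.4 and 12 CPM in All (log2 1.74, SE 0.76), and the groups did not overlap. Slamf1, which encodes CD150, had 7.58 and 11.4 CPM in Large against 15.9 and 22.6 CPM in All (log2 -1.02, SE 0.53), also without overlap. Kit, the stem cell factor receptor CD117, had 513 and 699 CPM in Large against 655 and 1017 CPM in All, and the groups overlapped. Ly6a, the gene of Sca-1, had 20.4 and 186 CPM in Large against 57.6 and 307 CPM in All, so that the replicate number separated the libraries more than size did. Within each number Ly6a was lower in Large. Without All 2, with both Large libraries set against All 1 alone, its fitted log2 fold change was 0.85, against -0.82 with all libraries.

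Genes of HSC identity were lower in Large with few exceptions. All 35 listed genes were tested, and the median log2 fold change was -0.97, against -0.03 over all genes tested. Lower values in Large within both replicate numbers were seen for 33 of 35, against the 33% of all genes given above, and both Large libraries lay below both All libraries for 17 of 35 (16.2% of all genes). None was above both, and 7 of 35 had an unadjusted p under 0.05 and were lower (1.8% of all genes). The median difference was -1.14 within number 1 and -0.89 within number 2. It was -0.67 without Large 1, -1.57 without Large 2, -1.23 without All 1 and -0.48 without All 2.

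Among the surface receptors of this list, Tek, the receptor TIE2, had 17.4 and 35.3 CPM in Large against 60.7 and 72.2 CPM in All (log2 -1.33, SE 0.41, unadjusted p = 0.014 by edgeR's quasi-likelihood test). Its ligand Angpt1 had 91.9 and 160 CPM in Large against 238 and 403 CPM in All (log2 -1.34, SE 0.45). Here receptor and ligand lay on the same side. Procr, which encodes the endothelial protein C receptor EPCR, had 5.29 and 60.4 CPM in Large against 30.4 and 179 CPM in All, with overlap and with the libraries of number 1 low.

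Transcription factors and other genes of the list differed in whether the groups overlapped. Mllt3, a chromatin reader that maintains human HSCs, had 23.2 and 33.2 CPM in Large against 48.6 and 84.2 CPM in All (log2 -1.24, SE 0.38). Mecom had 26.6 and 63 CPM in Large against 66.1 and 174 CPM in All, Meis1 had 119 and 226 CPM in Large against 297 and 413 CPM in All, and Gata2 had 82.8 and 109 CPM in Large against 137 and 166 CPM in All. The groups did not overlap for these 4 genes. Hlf, in contrast, had 25.2 and 151 CPM in Large against 108 and 409 CPM in All, and Fgd5 had 4.5 and 18.6 CPM in Large against 14.1 and 66.5 CPM in All. Both overlapped and had a large SE (1.12 and 1.04). Sult1a1, a sulfotransferase, had 6.5 and 18.7 CPM in Large against 26.4 and 53 CPM in All (log2 -1.65, SE 0.56). At the other end of the list, Runx1 had 63.8 and 50.4 CPM in Large against 66.5 and 57 CPM in All, and Gfi1b, shared with the megakaryocyte and erythroid lineages, had 91.3 and 30.8 CPM in Large against 81.1 and 20.1 CPM in All.

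Genes reported as raised in HSCs of old mice overlap this list by 4 members (Neo1, Slamf1, Sult1a1 and Vwf). Of the 20 tested, 9 lay below in both Large libraries and none above, with a median log2 fold change of -0.52 (-1.06 within number 1 and -0.21 within number 2). The median was -0.26 without All 1 and -1.08 without Large 2. Selp, which encodes P-selectin, had 16.6 and 20 CPM in Large against 35 and 21.8 CPM in All.

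Transcripts of origin licensing and the replicative helicase were higher in Large, in a sort restricted to G0/1 phase. All 17 tested genes were higher in Large within both numbers (31.6% of all genes), and 13 of 17 had both Large libraries above both All libraries (15.8% of all genes). The median log2 fold change was 0.84, with 0.47 within number 1 and 1.26 within number 2, and 2 of 17 had an unadjusted p under 0.05 (1.34% of all genes in this direction). Mcm3, a subunit of the helicase ring, had 651 and 651 CPM in Large against 429 and 304 CPM in All (log2 0.83, SE 0.27), and Mcm7 had 698 and 665 CPM in Large against 448 and 278 CPM in All (log2 0.91, SE 0.33). Mcm6 had 1152 and 1161 CPM in Large against 842 and 600 CPM in All. For these subunits the Large libraries were close together and All 2 was the lowest library. Mcm2, Mcm4 and Mcm5 also did not overlap, with log2 fold changes of 0.82, 0.85 and 1.06.

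The loading factors Cdt1 and Cdc6 had larger differences and a wider spread. Cdt1, which brings the helicase to the origin, had 112 and 105 CPM in Large against 63.7 and 25.7 CPM in All (log2 1.28, SE 0.55), and Cdc6, its partner, had 275 and 164 CPM in Large against 142 and 34.4 CPM in All (log2 1.32, SE 0.83). Gmnn, which encodes the Cdt1 inhibitor geminin, had 171 and 114 CPM in Large against 126 and 33.4 CPM in All, and the groups overlapped. The GINS subunits, which activate the helicase, had the smaller log2 fold changes of 0.40 to 0.74. Without All 2 the median of the list was 0.45, and without All 1 it was 1.51.

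The promoters of the licensing genes are shown because the members differed together. RefSeq start sites on GRCm38.p6 gave a promoter, from 250 bases before to 50 after the start, for 12 of the 17 genes. An E2F motif, TTTCCCGC or TTTGGCGC on either strand, was present in 7 of these 12 (58.3%), against 3.34% of the promoters of all tested genes with an entry. The 7 are Mcm3, Mcm5, Mcm6, Mcm7, Cdc6, Cdt1 and Gins3. The Mcm3 promoter (chr1:20820263-20820562, minus strand) holds 2 matches, both after the start site. The Mcm7 promoter (chr5:138171834-138172133, minus strand) holds 1 match before it, and a second RefSeq start of Mcm7 has a window (chr5:138171217-138171516) with no match. Both are written 5′ to 3′ with the matches in capitals, which mark letters and not measured binding.
Mcm3: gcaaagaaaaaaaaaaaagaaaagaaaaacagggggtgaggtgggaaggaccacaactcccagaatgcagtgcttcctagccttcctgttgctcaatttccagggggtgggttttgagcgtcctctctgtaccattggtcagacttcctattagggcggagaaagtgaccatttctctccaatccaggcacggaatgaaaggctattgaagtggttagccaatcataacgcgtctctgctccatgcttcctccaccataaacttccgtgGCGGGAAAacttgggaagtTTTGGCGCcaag
Mcm7: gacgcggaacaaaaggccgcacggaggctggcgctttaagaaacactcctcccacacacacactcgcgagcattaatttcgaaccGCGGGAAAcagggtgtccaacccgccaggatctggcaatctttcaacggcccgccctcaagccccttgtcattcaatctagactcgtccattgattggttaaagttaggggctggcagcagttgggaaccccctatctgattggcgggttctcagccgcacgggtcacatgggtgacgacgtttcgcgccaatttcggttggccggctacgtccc

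DNA synthesis and nucleotide supply genes followed the licensing genes. Of 30 tested, 29 were higher in Large within both numbers, 24 had both Large libraries above both All libraries, and the median log2 fold change was 0.82 (0.51 within number 1 and 1.3 within number 2). An unadjusted p under 0.05 was reached by 5 of 30. The polymerase genes had the smallest errors. Pold1, the catalytic subunit of polymerase delta, had 197 and 220 CPM in Large against 124 and 113 CPM in All (log2 0.82, SE 0.23). Pole, the catalytic subunit of polymerase epsilon, had 128 and 143 CPM in Large against 90.8 and 54 CPM in All (log2 0.90, SE 0.29). Pcna, the sliding clamp, had 617 and 560 CPM in Large against 438 and 259 CPM in All (log2 0.75, SE 0.33). For these 3 genes both Large libraries lay above both All libraries, and the spread between Large 1 and 2 was smaller than the distance to All. For Pole and Pcna the All libraries lay farther apart than the Large ones.

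Other genes of the list had a larger spread. Rrm2, the regulated subunit of ribonucleotide reductase, had 812 and 510 CPM in Large against 479 and 69.9 CPM in All (log2 1.27, SE 0.96). Ccne1, which encodes cyclin E1, had 107 and 29.5 CPM in Large against 59.1 and 4.45 CPM in All, and the groups overlapped. The member with a fitted value below 0 was Ung, a uracil glycosylase, with 7.93 and 5 CPM in Large against 7.52 and 8.5 CPM in All. Without All 2 the median of the list was 0.37. The E2F motif was found in 4 of the 25 promoters with an entry (16%).

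In the G2/M and mitosis list the size of the median depended heavily on 1 library. Its median log2 fold change was 0.83, and 21 of 24 tested genes were higher in Large within both numbers, but only 2 of 24 had both Large libraries above both All libraries, under the 15.8% of all genes. The difference was 0.29 within number 1 and 2.30 within number 2. Without All 2, with both Large libraries set against All 1 alone, the median was 0.01. Aurkb, a kinase of chromosome segregation, had 188 and 142 CPM in Large against 127 and 17.7 CPM in All (log2 1.19, SE 0.98). Top2a had 400 and 305 CPM in Large against 370 and 102 CPM in All. Bub1b, a spindle checkpoint kinase, had 288 and 206 CPM in Large against 197 and 69.3 CPM in All. All 2 was the lowest of the 4 libraries for each of these genes, and Large 1 and All 1 were closer to each other than Large 2 and All 2 were.

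Genes that drive or restrain the start of the cycle had medians on opposite sides of 0 (0.44 and -0.51). Cdk4, the cyclin D kinase, had 689 and 650 CPM in Large against 488 and 361 CPM in All (log2 0.66, SE 0.21), and 5 of 12 G1 cyclin and kinase genes had both Large libraries above both All libraries. Their median was 0.84 without All 1 and 0.17 without All 2. Of 19 tested inhibitor and quiescence genes, 13 were lower in Large within both numbers, 1 was higher within both and 3 lay below in both Large libraries, a share near the 16.2% of all genes. Their median was -0.11 without Large 1, -0.90 without Large 2, -0.70 without All 1 and -0.19 without All 2. Cdkn1c, which encodes the inhibitor p57 needed for HSC quiescence, had 5 and 20 CPM in Large against 14.3 and 53.1 CPM in All, with overlap. Klf2 had 16.7 and 21.2 CPM in Large against 31.1 and 31.4 CPM in All (log2 -0.72, SE 0.27). Tob1, an antiproliferative factor, had 25.5 and 46.6 CPM in Large against 46.2 and 82.5 CPM in All.

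**Figure D2:**
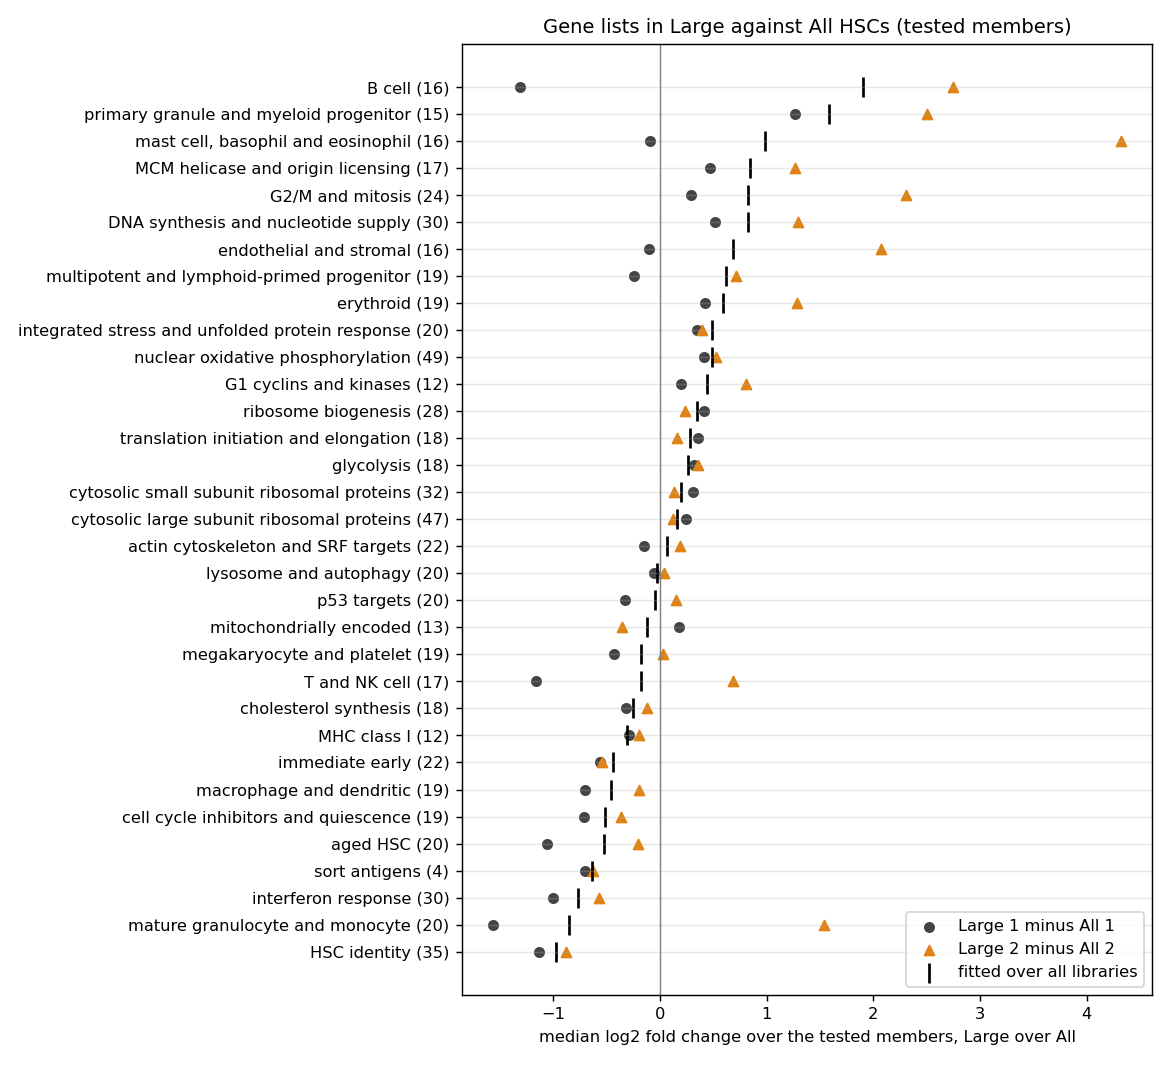
Median log2 fold change of the tested members of each of the 33 gene lists (number of tested genes in brackets), with Large 1 minus All 1 as circles, Large 2 minus All 2 as triangles and the fit over all libraries as bars. HSC identity (-0.97) lies at the bottom with both symbols below 0, nuclear oxidative phosphorylation (0.49) and the licensing list (0.84) have both above 0, and the mature granulocyte and B cell lists have their symbols on opposite sides of 0.

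Primary granule and myeloid progenitor genes had a median log2 fold change of 1.58 (1.27 within number 1 and 2.5 within number 2). Of 15 tested, 10 had both Large libraries above both All libraries and 13 were higher within both numbers. The median was 0.98 without Large 1, 1.98 without Large 2, 3.08 without All 1 and 0.79 without All 2. Mpo, which encodes myeloperoxidase, had 16527 and 7201 CPM in Large against 5276 and 132 CPM in All (log2 2.13, SE 1.44). Elane, neutrophil elastase, had 6329 and 2502 CPM in Large against 2123 and 60.7 CPM in All, and Prtn3, proteinase 3, had 1551 and 670 CPM in Large against 556 and 111 CPM in All. The groups did not overlap for these enzymes, and All 2 was far below All 1. On the length-scaled TPM values, which the authors deposited as log2, Mpo had 9555 and 4480 TPM in Large against 3239 and 97.9 TPM in All. Pcna for comparison had 606 and 570 TPM in Large against 447 and 302 TPM in All. Csf3r, the granulocyte colony-stimulating factor receptor, had 217 and 192 CPM in Large against 236 and 196 CPM in All and so did not follow the enzymes.

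Transcripts of mature granulocytes did not follow either. Their median was -0.85 in the fit, -1.56 within number 1 and 1.53 within number 2, and without All 1 it was 1.91. Ngp, a secondary granule protein, had 5883 and 3875 CPM in Large against 17007 and 990 CPM in All, so that both All libraries lay outside the Large ones on opposite sides. Cxcr2, the neutrophil chemokine receptor, had 14.6 and 8.48 CPM in Large against 74.9 and 6.98 CPM in All. Ly6c2, a monocyte antigen, was the member whose groups did not overlap, with 1684 and 878 CPM in Large against 818 and 71.8 CPM in All. Only 1 of 20 genes was higher in both Large libraries and none was lower in both.

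The summed expression of the primary granule list was 33918 and 15388 CPM in Large 1 and 2, against 12534 and 2828 CPM in All 1 and 2. That of the licensing list was 5328 and 4881 CPM in Large against 3612 and 2034 CPM in All. For HSC identity it was 1816 and 3762 CPM in Large against 3207 and 6523 CPM in All. The granule and licensing sums were highest in Large 1 and lowest in All 2, and the identity sum was lowest in Large 1 and highest in All 2. The part of myeloid progenitors in the values of the identity, replication and mitosis lists was not tested. When the scaling was recomputed without the myeloid and B cell genes, the median was -0.95 for HSC identity and 0.86 for licensing. That step changes only the scaling of each library, so it cannot show the part of myeloid progenitors.

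The plot of differences within numbers sets these lists against all genes. For primary granule genes the medians were 1.27 within number 1 and 2.5 within number 2, and for HSC identity genes -1.14 and -0.89. For DNA synthesis genes they were 0.51 and 1.3.

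**Figure D3:**
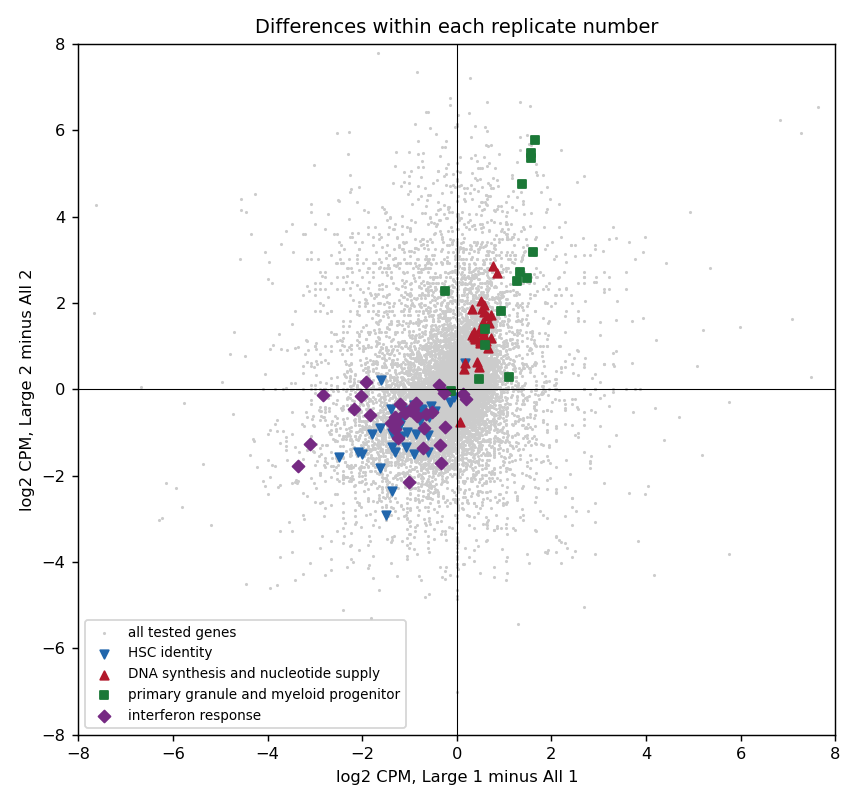
Difference in log2 CPM of each tested gene, Large 1 minus All 1 on the x axis and Large 2 minus All 2 on the y axis, with 4 lists in colour and all 16066 tested genes in grey. HSC identity and interferon response members lie mostly lower left (33 of 35 and 26 of 30 lower within both numbers), and DNA synthesis and primary granule members mostly upper right (29 of 30 and 13 of 15 higher within both).

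Markers of other blood and marrow cells varied between libraries of the same group. The B cell list summed to 322 and 6573 CPM in Large against 983 and 369 CPM in All. Ighm, the immunoglobulin mu heavy chain, had 204 and 3763 CPM in Large against 358 and 143 CPM in All. The high B cell signal was thus a feature of Large 2 and not of Large 1. Dntt, the terminal transferase of early lymphoid cells, had 8.36 and 384 CPM in Large against 11.8 and 13.9 CPM in All. It was also high in Small 2 and Medium 2, at 232 and 257 CPM, where Ighm had 224 and 1050 CPM. Of 47 tested immunoglobulin genes and segments, 19 averaged at least 5 CPM, and of the 47, 4 were above and 13 below in both Large libraries. The named one, Igkv12-89, had 25.7 and 27.9 CPM in Large against 0 and 0.169 CPM in All, where All 2 held 3 reads. Reads of such near-identical segments were divided by estimation, and the value is uncertain.

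Erythroid regulator and globin genes differed in which library was high. Klf1 had 121 and 18.3 CPM in Large against 90.3 and 0.338 CPM in All, and Car1, carbonic anhydrase 1, had 1805 and 284 CPM in Large against 907 and 22.7 CPM in All. Hbb-bs, an adult beta globin, had 17.6 and 29.7 CPM in Large against 23.8 and 135 CPM in All. The near-identical copy Hbb-bt had 17.5 and 51.5 CPM in Large against 41.4 and 127 CPM in All, and reads shared by both copies are uncertain. Of 19 tested erythroid genes, 11 were higher and 7 lower in Large within both numbers, and without Large 1 the list median of 0.59 was -0.59.

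Among the Large and All libraries, basophil and eosinophil genes were low in All 2. Prss34, a basophil protease, had 196 and 252 CPM in Large against 87.1 and 13.4 CPM in All, and Mcpt8, another, had 78.8 and 96.5 CPM in Large against 37.1 and 4.22 CPM in All. In Small 1 and Small 2 Mcpt8 had 181 and 1.64 CPM, so its low value was not particular to All 2. Of 16 tested genes in the mast cell, basophil and eosinophil list, 6 were above and 1 below in both Large libraries, and the median of 0.98 was 0.38 without All 2 and 4.63 without All 1. The macrophage and dendritic list summed to 434 and 936 CPM in Large against 554 and 1219 CPM in All. Its complement gene C1qa was near 0, at 0.286 and 0.526 CPM in Large against 0.557 and 1.86 CPM in All. Vcam1, an adhesion molecule that stromal cells share, had 118 and 68.9 CPM in Large against 93.1 and 21.2 CPM in All. T cell receptor complex genes were also near 0, with Cd3e at 0.286 and 0.46 CPM in Large against 1.39 and 0.675 CPM in All. Sparc, a matrix protein of stromal and other cells, had 9.01 and 16.6 CPM in Large against 6.34 and 3.71 CPM in All, while the endothelial cadherin Cdh5 had 0.0715 and 0.395 CPM in Large against 0.139 and 0 CPM in All. Megakaryocyte and platelet genes had a median of -0.18, which was -0.39 without All 2 and -0.003 without All 1. Of these genes, 5 of 19 lay below in both Large libraries. Among them was Rab27b, at 16.2 and 15.7 CPM in Large against 36.5 and 29.6 CPM in All.

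**Figure D4:**
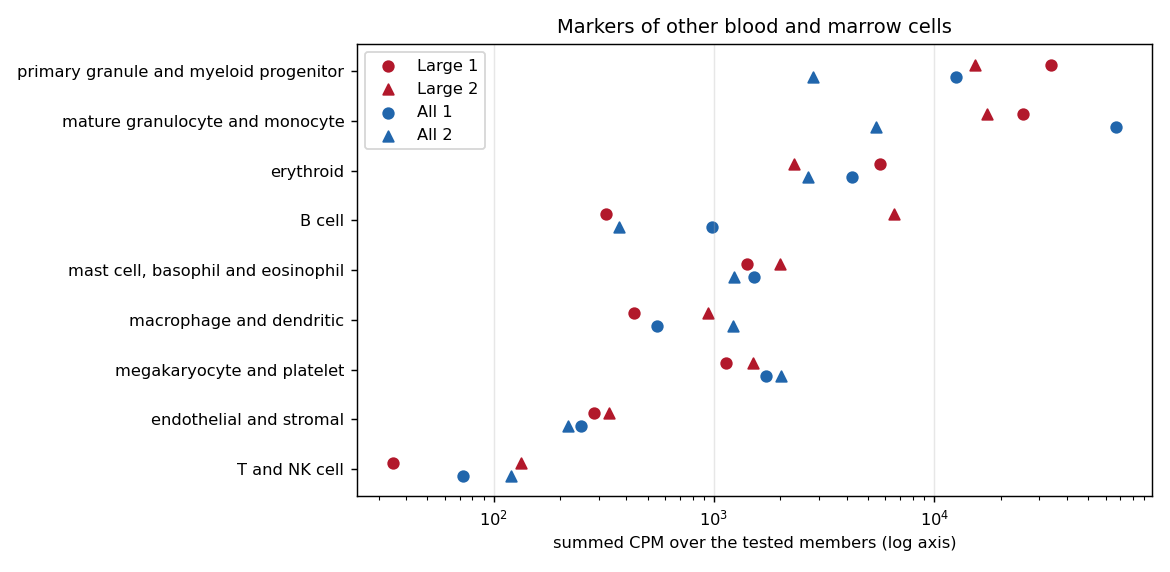
Summed CPM (log axis) of the tested markers of other blood and marrow cells in each Large (red) and All (blue) library, circles for number 1 and triangles for number 2. The primary granule sum is 33918 and 15388 CPM in Large and 12534 and 2828 CPM in All, and the B cell sum is high in Large 2 alone among these 4 libraries, at 6573 CPM.

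Of 19 tested multipotent and lymphoid-primed progenitor genes, 6 had both Large libraries above both All libraries and none below, 8 were higher within both numbers and 4 lower. Csf1r, the receptor for macrophage colony-stimulating factor, had 61.8 and 67.3 CPM in Large against 43.5 and 18.6 CPM in All (log2 1.06, SE 0.50). Flt3 had 27.8 and 497 CPM in Large against 40.9 and 387 CPM in All, and Cd34 had 333 and 908 CPM in Large against 350 and 911 CPM in All. For these 2 genes the libraries of number 2 were the high ones in both groups. The list median was 0.62, with -0.24 within number 1 and 0.71 within number 2, and -0.52 without Large 2.

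Genes of nuclear-encoded oxidative phosphorylation were higher in Large, with fitted log2 fold changes of 0.20 to 0.88. All 49 tested genes were higher within both numbers (31.6% of all genes), with a median log2 fold change of 0.49 (0.41 within number 1 and 0.53 within number 2), and 19 of 49 had both Large libraries above both All libraries. Uqcrc1, a core subunit of complex III, had 529 and 446 CPM in Large against 331 and 291 CPM in All (log2 0.65, SE 0.20, unadjusted p = 0.015 by edgeR's quasi-likelihood test). Atp5a1, the alpha subunit of ATP synthase, had 1257 and 1126 CPM in Large against 871 and 775 CPM in All (log2 0.53, SE 0.18). Ndufv1 of complex I had 242 and 216 CPM in Large against 164 and 150 CPM in All. Both Large libraries lay above both All libraries for these 3 genes. The median was 0.21 without Large 1, 0.67 without Large 2, 0.83 without All 1 and 0.20 without All 2.

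Transcripts of the mitochondrial genome, which encode the partner subunits, did not show this. Their median was -0.12, with 0.18 within number 1 and -0.36 within number 2. No gene of 13 had groups that did not overlap, and 2 of 13 were higher within both numbers. As an exception, mt-Nd1 was higher within each number, with 901 and 594 CPM in Large against 704 and 593 CPM in All. The difference between nuclear and mitochondrial lists was not tested.

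The promoter of Uqcrc1 is shown because a motif of NRF1, a factor known to act on respiratory chain genes, occurs in it. The motif, GCGCA and GCGC with any 1 base between them on either strand, was in 10 of the 37 promoters of the list with an entry (27%), against 10.9% of promoters of all tested genes. The Uqcrc1 promoter (chr9:108936398-108936697, plus strand, GRCm38.p6, RefSeq) has 2 matches, in capitals, both after the start site.
Uqcrc1: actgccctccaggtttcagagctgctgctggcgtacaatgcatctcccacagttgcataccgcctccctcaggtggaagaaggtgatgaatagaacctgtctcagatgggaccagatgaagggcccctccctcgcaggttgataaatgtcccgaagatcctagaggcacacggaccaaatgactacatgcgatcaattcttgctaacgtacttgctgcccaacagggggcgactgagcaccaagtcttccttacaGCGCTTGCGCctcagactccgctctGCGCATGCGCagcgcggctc

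Ribosomal protein genes were higher in Large by less. Of 47 large subunit genes, 23 had both Large libraries above both All libraries and none below, with a median log2 fold change of 0.15, and of 32 small subunit genes 15 were above and none below, with a median of 0.20. Rplp0, of the ribosomal stalk, had 1448 and 1278 CPM in Large against 1127 and 1035 CPM in All (log2 0.33, SE 0.18). No member of either list had an unadjusted p under 0.05. With each library left out in turn, the medians were 0.06 to 0.28 for the large and 0.09 to 0.32 for the small subunit, both lowest without Large 1 and highest without Large 2. Counts of ribosomal protein genes share reads with processed pseudogenes and are uncertain. All 28 ribosome biogenesis genes had fitted values above 0, with a median of 0.34, and 25 of 28 were higher within both numbers. The median was 0.12 without Large 1 and 0.53 without Large 2. Nolc1, a nucleolar chaperone, had 219 and 184 CPM in Large against 135 and 127 CPM in All (log2 0.62, SE 0.25), and Bop1 had 126 and 111 CPM in Large against 96.2 and 75.8 CPM in All.

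Translation factors lay between. Eif3b, a scaffold of the initiation factor eIF3, had 507 and 448 CPM in Large against 358 and 296 CPM in All (log2 0.55, SE 0.23), and 7 of 18 genes were above in both Large libraries. Their median of 0.28 was 0.12 without Large 1 and 0.44 without Large 2. Among glycolytic enzymes, 7 of 18 were above and 1 below in both Large libraries. Pgam1, phosphoglycerate mutase, had 667 and 533 CPM in Large against 403 and 328 CPM in All (log2 0.71, SE 0.22), and Gapdh had 289 and 249 CPM in Large against 202 and 170 CPM in All. Cholesterol synthesis genes went the other way, with 2 of 18 above and 5 below in both Large libraries and a median of -0.25. That median was -0.08 without Large 1 and -0.003 without All 2. Msmo1, a sterol oxidase, had 55.5 and 84.8 CPM in Large against 108 and 125 CPM in All, and Fdft1, squalene synthase, had 28.7 and 30.7 CPM in Large against 45.6 and 43.7 CPM in All (log2 -0.59, SE 0.23).

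The genes named from the stress list belong mostly to protein folding in the endoplasmic reticulum. Of 20 tested genes of the integrated stress and unfolded protein responses, 8 were above in both Large libraries and none below, with a median of 0.49 (0.34 within number 1 and 0.39 within number 2). Hspa5, the chaperone BiP, had 2574 and 1937 CPM in Large against 1526 and 1403 CPM in All (log2 0.62, SE 0.20). Herpud1 had 289 and 330 CPM in Large against 193 and 240 CPM in All, and Pdia4, a disulfide isomerase, had 477 and 289 CPM in Large against 261 and 163 CPM in All. The median was 0.30 to 0.46 when each of the 4 libraries was left out in turn.

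Among p53 targets Pmaip1, named above, was not typical. Of 20 tested, 3 were above and 4 below in both Large libraries, and the median was -0.05, or 0.19 without All 1. Trp53inp1, a stress-induced nuclear protein, had 19.7 and 36.3 CPM in Large against 62.1 and 56.9 CPM in All (log2 -1.09, SE 0.39), and Ccng1, cyclin G1, had 83 and 86.8 CPM in Large against 108 and 107 CPM in All. In the lysosome and autophagy list 6 of 20 genes were above in both Large libraries, among them Neu1, a sialidase, with 90.6 and 66.3 CPM in Large against 54.5 and 30.2 CPM in All, while the median was -0.03 and 0.08 without Large 1. Actin cytoskeleton genes had 4 of 22 above and 3 below in both Large libraries and a median of 0.07, which was -0.04 without Large 2.

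Interferon response genes were lower in Large. None of 30 tested genes had a fitted value above 0, and 26 of 30 were lower within both numbers (33% of all genes). The median log2 fold change was -0.77, with -1.0 within number 1 and -0.58 within number 2, and 8 of 30 lay below in both Large libraries (16.2% of all genes). Samd9l, an antiviral factor, had 11.3 and 9.54 CPM in Large against 22.9 and 42.9 CPM in All (log2 -1.66, SE 0.49). Ifih1, the RNA sensor MDA5, had 8.36 and 9.14 CPM in Large against 10.5 and 30.2 CPM in All (log2 -1.22, SE 0.54). The list median was -0.24 without Large 1 and -0.20 without All 2, against -1.57 without Large 2 and -1.05 without All 1.

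The interferon-stimulated response element was searched as TTTC and TTTC with any 2 bases between them, on both strands. It was in 14 of the 21 interferon promoters with an entry (66.7%), against 3.99% of promoters of all tested genes. The Ifih1 promoter (chr2:62646206-62646505, minus strand, GRCm38.p6, RefSeq) is shown as an example, with its match in capitals after the start site.
Ifih1: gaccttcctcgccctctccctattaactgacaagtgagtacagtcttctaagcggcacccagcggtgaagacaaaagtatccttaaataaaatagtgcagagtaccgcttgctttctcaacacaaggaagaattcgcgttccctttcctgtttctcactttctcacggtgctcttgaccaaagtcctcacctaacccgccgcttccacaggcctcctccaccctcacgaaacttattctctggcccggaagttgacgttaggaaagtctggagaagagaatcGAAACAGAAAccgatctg

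MHC class I and immediate early genes were lower by their medians, with wide spread. The MHC class I list had a median of -0.31, and 9 of 12 genes were lower within both numbers while no group was free of overlap. The median was -0.29 within number 1 and -0.20 within number 2. It was 0.13 without Large 1 and 0.15 without All 2, fits in which the numbers were not balanced between the groups. H2-T23, a nonclassical class I gene, had 111 and 234 CPM in Large against 203 and 398 CPM in All. Of 22 immediate early genes, 17 were lower within both numbers and none was higher within both, with a median of -0.44. Only 2 of 22 lay below in both Large libraries, under the 16.2% of all genes. Fosb had 29.5 and 78.8 CPM in Large against 52.8 and 249 CPM in All, and Klf6 had 328 and 551 CPM in Large against 524 and 956 CPM in All. Number 2 libraries were the higher ones in both groups for these genes, and without All 2 the list median was -0.04.

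The class of longest genes had lower fold changes than the class of shortest genes. Split into 5 classes by exonic length, the tested genes had median log2 fold changes of 0.07, 0.01, 0.01, -0.05 and -0.15 from the shortest to the longest class. The same end classes differed in the same direction within both numbers, at 0.04 and -0.09 within number 1 and 0.12 and -0.16 within number 2. The part of length in the medians of lists of short genes, such as ribosomal protein and oxidative phosphorylation genes, was not tested.

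Set beside the other size gates, the Large libraries had the medians farthest from 0 for 9 of the 10 lists drawn. Among lists not drawn this did not hold for many. Medium or Small lay farther from 0 for the multipotent progenitor, mature granulocyte, T and NK cell, mast cell and basophil, and endothelial lists. The same was true of the small subunit ribosomal protein, mitochondrially encoded, lysosome, p53 target and actin lists. Mature granulocyte genes had -0.85 in Large and -1.30 in Medium, and mast cell, basophil and eosinophil genes had 0.98 in Large and 1.69 in Small. The 3 comparisons share the All libraries, so their values are not independent and the difference between gates was not tested. HSC identity had a median of -0.97 in Large against All, -0.24 in Medium against All and -0.45 in Small against All. DNA synthesis genes had 0.82 in Large, 0.03 in Medium and 0.03 in Small, and interferon genes had -0.77, -0.06 and -0.16 in the same order. Oxidative phosphorylation genes had 0.49 in Large, 0.21 in Medium and -0.02 in Small. Ribosomal proteins of the large subunit had the largest value in Medium, with 0.15 in Large, 0.29 in Medium and -0.24 in Small. Primary granule genes were above All in each gate, with medians of 1.58, 0.41 and 0.87 in Large, Medium and Small. The 10 genes named as higher also had fitted values above 0 in Medium and Small, and the 10 named as lower had values below 0. In the order Large, Medium and Small, Met had log2 fold changes of 2.22, 1.80 and 2.04, and Irf8 had 2.23, 1.19 and 2.07. Dhx38 had 0.89, 0.45 and 0.92, while Pola2 had 0.94, 0.21 and 0.39. Slamf1 had -1.02, -0.32 and -0.98, while Slc18a2 had -1.32, -0.55 and -0.66.

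**Figure D5:**
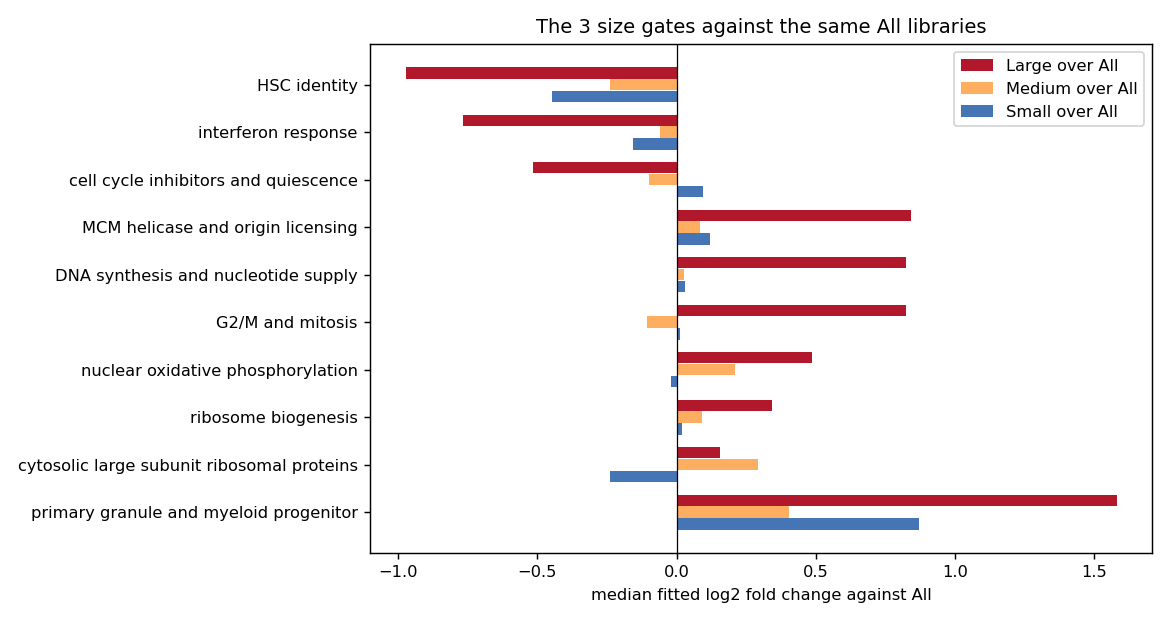
Median fitted log2 fold change of 10 gene lists in Large, Medium and Small HSCs over the same 2 All libraries (bars start at 0). The DNA synthesis bar is 0.82 for Large and 0.03 for both Medium and Small, and the HSC identity bar is below 0 in all 3 gates.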

How the data were processed

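Per the submitters' processing notes, reads were processed with STAR 2.5.3a, RSEM 1.3.0 and SAMtools 1.3 on mm10; neither the annotation release nor the use of strand is given in the sources used here. Estimated counts for each gene, in whole numbers and unscaled, were deposited by the authors, as were log2 values of TPM plus 1, a unit scaled for gene length and library size. Of 50686 Ensembl gene IDs, 50462 matched a symbol in GENCODE M21 (GRCm38), and IDs without a match took 0.0359% or less of the counts in any library.

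The counts of all 8 libraries were fitted with edgeR 4.0.16 (R 4.3.3): quasi-likelihood test with robust estimation, TMM scaling, group as the only term, 4 residual degrees of freedom, and filterByExpr with a minimum count of 10, which kept 16066 genes. P-values are two-sided, Benjamini-Hochberg adjusted over all genes, threshold 0.05. Floors and counting precision cover counting error only, since amplified reads are not independent molecules: 3 counts equalled 0.169 to 0.214 CPM. Alternatives used DESeq2 1.42.0 and limma 3.58.1 (voom, and limma-trend on the log2 TPM values). The fitting script was tested on simulated data.

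The comparison, the 33 lists (691 genes, 681 tested) and the promoters shown were chosen with earlier results of these data known, and some lists share genes. Named genes, 112 in all, of which 2 are not reported here, are the 10 with the smallest unadjusted p in each direction whose groups do not overlap and whose mean is at least 5 CPM, without clone, pseudogene or receptor segment names; the 3 with the smallest p in each list at the same mean; the 4 sort antigens; and 1 immunoglobulin segment. Other list members given in the text were picked for their role after their values were seen. No set test was run. Coordinates are 1-based.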

Additional observations from a re-analysis of the deposited data

How the results depend on the processing

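The count of 0 genes passing adjusted p became 121 with no filter on low counts (69 higher and 52 lower, of which 113 also pass the usual filter), 8 with DESeq2 (Ap3s1-ps2, Gm11346, Hspa1b, Igkv12-89, Igkv4-55, Met, Pfkfb2 and Pmaip1; 5 higher and 3 lower) and 1 (Igkv12-89) with limma-trend on log2 TPM. It stayed 0 with RLE or upper quartile scaling, scaling without myeloid and B cell genes, the stricter filter, limma-voom and the 4 libraries alone. The count at unadjusted p under 0.05, 504, was 1618 with no filter, 810 with DESeq2, and 304 with the 4 libraries alone; with 1 library left out in turn it ran from 178 to 2065, and 0 genes passed adjusted p. A lone library left in a group is assumed there to vary like the other groups.

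Same-numbered Large and All libraries deviated together (correlation 0.358), but the labels tie no batch or animal to the numbers. With the number as a replicate block, edgeR gave 0 genes past adjusted p (smallest 0.0778) and 3183 at unadjusted p under 0.05; with the 4 libraries alone and the block 0 and 2202; limma-voom with the block 0 (smallest 0.0542) and 3386; and DESeq2 with the block 1651 (985 higher, 666 lower) and 3573. The cause of these differences was not tested.

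Of 1870 values of 110 named genes under 17 alternatives, 16 changed sign, in 12 genes, and 95 passed adjusted p where the reported one did not. With 1 library left out in turn, the log2 fold change ran from -0.62 to 4.90 for Dntt, -0.30 to 3.91 for Ighm and -1.97 to 4.07 for Igll1, each lowest without Large 2. It ran from -1.76 to 1.53 for Lck, -2.69 to 0.47 for H2-Eb1, -3.15 to 0.85 for Ly6a and -2.35 to 0.036 for Fosb, each lowest without Large 2 and highest without All 2. It ran from -2.32 to 0.97 for Ly6g and -2.70 to 0.75 for Cxcr2, highest without All 1, from -0.52 to 0.065 for mt-Nd5 and -1.72 to 0.014 for H2-Q4, highest without All 2, and from -0.12 to 0.47 for mt-Nd1, lowest without Large 1. For Lck it was -0.020 with limma-voom and -0.097 with limma-trend. Of the 33 list medians, 21 kept their sign under all 17 alternatives and 12 did not; none changed sign with RLE or upper quartile scaling or with the scaling without myeloid and B cell genes. The median of all genes was -0.09 with upper quartile scaling and -0.03 with TMM.

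Leaving out a library also moved counts of members whose groups do not overlap. For HSC identity, 18, 33, 32 and 19 of 35 lay below without Large 1, Large 2, All 1 and All 2, against 26.3%, 36.7%, 42.1% and 29.2% of all genes. For DNA synthesis the counts above were 24, 29, 29 and 24 of 30, against 25.9%, 34.8%, 39.8% and 27% of all genes. For oxidative phosphorylation they were 19, 49, 49 and 19 of 49, and for interferon genes 8, 28, 28 and 8 of 30 lay below.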

Other observations

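After the values were seen, 4 more lists were drawn up around the genes named in the comparison of Large with All; they are described only, since the values chose them. Genes of the endoplasmic reticulum translocon, oligosaccharyltransferase and signal peptidase had a median log2 fold change of 0.44 (0.48 within number 1 and 0.44 within number 2), with 10 of 34 above and 1 below in both Large libraries. Besides Sec61a1, the oligosaccharyltransferase subunit Ddost had 666 and 510 CPM in Large against 375 and 284 CPM in All, and Srprb, a subunit of the signal recognition particle receptor, had 101 and 110 CPM in Large against 70 and 55.8 CPM in All. Genes of folate one-carbon, serine and nucleotide base synthesis had 16 of 25 above and none below in both Large libraries, with a median of 0.47. Mtr, methionine synthase, had 94.1 and 88.6 CPM in Large against 57.7 and 46.4 CPM in All, and Gart, a purine synthesis enzyme, had 341 and 256 CPM in Large against 206 and 135 CPM in All.

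Of 12 Hsp70 and Hsp110 chaperone genes, 7 were above in both Large libraries and none below, with a median of 0.53. Hspa1a, the neighbouring near-identical copy of Hspa1b, had 22.1 and 34.6 CPM in Large against 12.5 and 5.18 CPM in All, and reads shared by both copies are uncertain. The nuclear noncoding RNA Malat1 had 2261 and 2612 CPM in Large against 3055 and 7317 CPM in All (log2 -1.09, SE 0.38). Malat1 and Neat1 were thus both lower in both Large libraries.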
